A study of Mus musculus with 4 samples.

Results

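Expression of 10 genes of lactate handling and glycolysis was described in cells sorted from the mouse lower incisor, with and without Ptip. The genes are the lactate dehydrogenases Ldha and Ldhb, the monocarboxylate transporters Slc16a1 and Slc16a3, the glucose transporter Slc2a1, and the glycolytic enzymes Hk1, Hk2, Pfkp, Aldoc and Pgk1. They were taken by symbol from the deposited table, and all 10 of them were found among its 55487 genes. The group was drawn up because of the KO against WT difference of Ldhb in these same libraries, so the differences of the 10 genes between the groups are given as a description. Test calls on them are counted only beside the share of all genes called, and nothing is read from them.

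The 2 KO libraries came from mice carrying floxed Ptip alleles together with the Sp7-cre transgene (Ptipf/f;Sp7-cre), and the 2 WT libraries from mice with the same floxed alleles and no Cre (Ptipf/f). All mice were of strain C57 at postnatal day 30. Ptip is the protein name of Paxip1, which encodes a subunit of histone methyltransferase complexes, and Sp7 encodes a transcription factor of bone-forming and dentin-forming cells, so deletion is limited to cells that have used its promoter. Because WT mice carry no Cre, loss of Ptip and presence of the transgene cannot be told apart, and the labels do not say whether libraries came from separate or pooled animals, so p-values measure only the spread between these libraries.

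Polyadenylated RNA was taken from cells negative for CD45, Ter119 and Tie2, a gate meant to remove leukocytes, erythroid cells and endothelial cells, which selects for no progenitor protein. Libraries held 17770831 to 19142757 counts in KO and 15154246 to 15394782 in WT. Paxip1, the targeted gene, had 111 and 71 counts in KO 1 and KO 2, against 407 and 696 in WT 1 and WT 2. Its level was 7.50-fold lower in KO (log2 fold change -2.91, SE 0.48), with an adjusted p of 0.150 in edgeR, above the threshold of 0.05, and 9.03e-06 in DESeq2. Dental mesenchyme markers were present in every library, and so were markers of other cells. The ameloblast gene Ambn had 31001 and 41111 CPM (counts scaled to library size) in KO, against 52583 and 18171 in WT, although the labelled tissue is dental pulp. The 10 dental epithelium markers summed to 34878 and 42085 CPM in KO, against 63499 and 22769 in WT. In 6 of them both KO libraries lay below both WT libraries, beside 24.9% of all tested genes. Amelx, another ameloblast gene, had 2395 and 80 CPM in KO 1 and KO 2, against 7421 and 2410 in WT. The 8 odontoblast markers summed to 15177 and 25944 CPM in KO, against 17636 and 40580 in WT. Col1a1 made up most of each sum, with 14440 and 24543 CPM in KO, against 17241 and 38662 in WT. Of the 8, 4 had positive and 4 negative fold changes. In 3 both KO libraries lay above both WT libraries and in 2 below, beside 25.8% and 24.9% of all tested genes. Leukocyte markers summed to 776 and 242 CPM in KO, against 5223 and 1910 in WT, and Cd3e, a T cell gene, was at 0 in all libraries. Xist and the Y-linked Ddx3y differed within each group: KO 1 had 116 and 2.0 CPM and KO 2 had 5.83 and 117, whereas WT 1 had 58.3 and 43.1 and WT 2 had 211 and 8.85. The libraries of a group were therefore not repeats of the same RNA.

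Glycolysis splits glucose into pyruvate in the cytosol, and lactate dehydrogenase interconverts pyruvate and lactate while recycling the cofactor NADH. The enzyme is a tetramer of A and B subunits, encoded by Ldha and Ldhb. Tetramers rich in the A subunit are typical of skeletal muscle and are known for turning pyruvate into lactate, whereas those rich in the B subunit are typical of heart and are known for using lactate. Lactate crosses the cell membrane through monocarboxylate transporters that need a partner protein, basigin or embigin, to reach the surface. Osteoblasts, relatives of the cells that make dentin, are known for high aerobic glycolysis.

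Ldhb, the gene of the B subunit (ENSMUSG00000030246, chromosome 6 from 142490249 to 142507957, minus strand, GRCm38), was by a wide margin the most abundant of the 10 genes in KO. It had 97266 and 58237 counts in KO 1 and KO 2, against 8225 and 4648 in WT 1 and WT 2. As CPM, with library sizes scaled by the trimmed mean of M-values (TMM), these were 4985 and 3264 in KO, against 572 and 296 in WT. The groups did not overlap: the lower KO library stood far above the higher WT library. The mean was 4124 ± 1217 CPM in KO and 434 ± 195 in WT (SD, n = 2 each), a 9.51-fold higher level in KO (log2 fold change 3.25, SE 0.48). Ordered by counts among all genes of the table, Ldhb was number 6 in KO 1 and 13 in KO 2, against 191 in WT 1 and 424 in WT 2. By fold change Ldhb was number 128 from the top among all 17128 tested genes. Among the 2055 with at least 100 CPM on average in WT, a floor that leaves out genes low in WT, it was number 2. Both ranks are a description, since the group was drawn up on this difference. Of 50-base words in Ldhb transcripts, 21% also occur in 1 other annotated gene, which had at most 286 counts in any library.

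Ldha, the gene of the A subunit (ENSMUSG00000063229, chromosome 7 from 46841475 to 46855627, plus strand), showed no comparable gap. It had 583 and 526 CPM in KO, against 574 and 359 in WT. WT 1 lay between the KO libraries and WT 2 below them, so the groups overlapped. The log2 fold change was 0.25 (SE 0.36) and was -0.09 without WT 2. Of its 50-base words, 9.26% occur in 328 other annotated genes, of which the most abundant had up to 10940 counts, so its level, and the Ldhb share computed from it, carry that uncertainty.

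The balance between the subunit genes was compared per kilobase (kb) of annotated exon, since Ldha spans 3310 exonic bases and Ldhb 1570. On this scale Ldhb stood at 3175 and 2079 CPM per kb in KO, against 364 and 188 in WT, and Ldha at 176 and 159 in KO, against 174 and 108 in WT. Ldhb thus made up 94.7% and 92.9% of the Ldha and Ldhb level per kb in KO, against 67.7% and 63.5% in WT (mean 93.8% ± 1.30 in KO and 65.6% ± 3.02 in WT, SD, n = 2 each). The groups did not overlap, and the difference of 28.2 points exceeded the spread within either group. The level of Ldhb was 18 and 13.1 times that of Ldha in KO, against 2.10 and 1.74 times in WT. The size of the share depended on the length used: with raw counts it was 89.5% (95% Wilson interval 89.3% to 89.7%) and 86.1% (85.9% to 86.4%) in KO, against 49.9% (49.1% to 50.7%) and 45.2% (44.2% to 46.1%) in WT. With the length of 1 principal transcript per gene, 1766 bases for Ldha and 1304 for Ldhb, it was 92.0% and 89.4% in KO, against 57.4% and 52.7% in WT. The Wilson intervals treat each read as independent and leave out the spread between libraries. Reads copied in PCR are not independent molecules, so these intervals can be too narrow even for counting error. The summed level of both genes was 3351 and 2238 CPM per kb in KO, against 538 and 297 in WT.

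**Figure D1:**
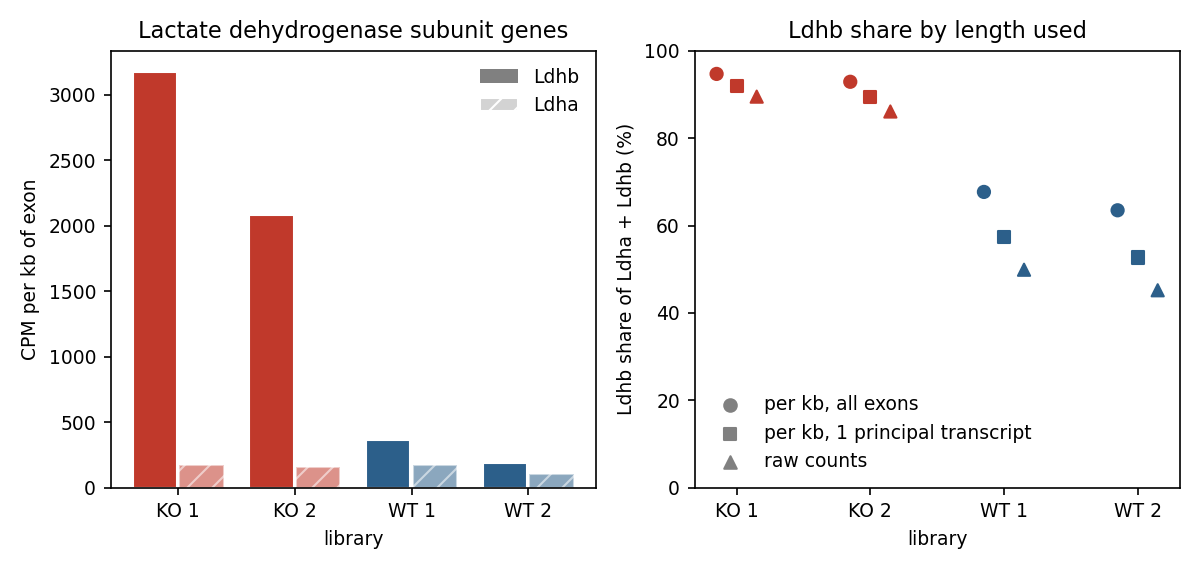
Left, bars give the level of Ldhb (plain) and Ldha (hatched) in CPM per kb of exon in each library, KO in red and WT in blue. Right, points give the share of Ldhb in the 2 genes' level in percent, by the length used; with all exons it is 94.7% and 92.9% in KO, against 67.7% and 63.5% in WT.

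Most dental mesenchyme markers stood higher in KO, as Ldhb did. The 10 markers listed, all of them counted in every library, summed to 4366 and 3925 CPM in KO, against 1417 and 1658 in WT. Msx1 made up most of the KO sum, with 2912 and 2525 CPM in KO, against 724 and 847 in WT. In 8 of the 10 both KO libraries lay above both WT libraries, beside 25.8% of all tested genes. Prrx1 and Lhx8 overlapped, Lhx8 with 36.5 and 33.2 CPM in KO, against 32 and 42.2 in WT. In bulk RNA, more cells of a type and more RNA per cell cannot be told apart, and the part of cell makeup in the Ldhb difference was not tested. Within KO, the marker sum and Ldhb were both higher in KO 1. Within WT, the marker sum was higher in WT 2 and Ldhb in WT 1.

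Promoter windows of the 4 members that the next results turn on are printed because hypoxia-inducible factor (HIF), a known activator of glycolysis genes, binds a short core. Each RefSeq window (GRCm38.p6) runs 5′ to 3′ on the gene's strand, from 250 bases before to 50 bases after a start, and was found for all 10 genes, with a second window for Ldha, Hk1 and Aldoc. Capitals mark ACGTG or GCGTG on either strand, and CACGTG reads as a match on both strands. Windows shown are Ldhb chr6:142507908-142508207 (minus), Ldha chr7:46845554-46845853 (plus, the first of its windows), Slc16a1 chr3:104638414-104638713 (plus) and Aldoc chr11:78322823-78323122 (plus, the first of its windows).
Ldhb: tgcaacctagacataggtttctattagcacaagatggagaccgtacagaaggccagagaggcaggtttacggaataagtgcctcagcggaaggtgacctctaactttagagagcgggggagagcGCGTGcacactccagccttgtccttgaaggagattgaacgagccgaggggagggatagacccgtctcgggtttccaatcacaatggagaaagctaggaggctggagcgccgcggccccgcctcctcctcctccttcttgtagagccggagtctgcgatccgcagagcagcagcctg
Ldha: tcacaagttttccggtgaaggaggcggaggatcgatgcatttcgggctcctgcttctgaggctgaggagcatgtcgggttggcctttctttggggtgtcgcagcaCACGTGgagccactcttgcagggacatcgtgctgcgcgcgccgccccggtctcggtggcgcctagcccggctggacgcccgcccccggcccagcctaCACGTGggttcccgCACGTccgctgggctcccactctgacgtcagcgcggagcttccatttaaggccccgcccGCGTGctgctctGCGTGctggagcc
Slc16a1: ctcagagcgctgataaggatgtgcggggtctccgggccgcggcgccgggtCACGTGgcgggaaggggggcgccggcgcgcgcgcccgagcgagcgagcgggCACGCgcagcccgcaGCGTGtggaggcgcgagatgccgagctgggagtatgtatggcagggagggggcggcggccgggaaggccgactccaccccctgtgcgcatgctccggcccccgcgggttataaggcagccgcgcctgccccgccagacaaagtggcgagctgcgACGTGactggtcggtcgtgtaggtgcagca
Aldoc: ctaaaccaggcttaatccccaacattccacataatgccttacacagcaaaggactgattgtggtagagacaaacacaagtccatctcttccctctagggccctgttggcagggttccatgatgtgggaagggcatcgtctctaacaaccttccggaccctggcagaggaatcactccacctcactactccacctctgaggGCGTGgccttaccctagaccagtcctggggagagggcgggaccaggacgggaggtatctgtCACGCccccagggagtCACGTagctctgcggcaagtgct
The Ldha window holds 7 matches, with CACGTG at 2 places, and the Ldhb window holds 1. Slc16a1 has 5 matches, with CACGTG at 1 place, and Aldoc has 3. Of 32851 windows of this length in the RefSeq table, 43.8% hold at least 1 match, 8.93% hold at least 3 and 7.15% hold CACGTG. Windows not shown hold 2 matches each for Slc16a3, Slc2a1, Hk2, Pgk1 and the second of Ldha. They hold 1 for the second of Aldoc, 4 for Pfkp, and 0 and 5 for Hk1. Every match contains a CpG pair. The windows shown hold 17 such pairs for Ldhb, 30 for Ldha, 42 for Slc16a1 and 8 for Aldoc, beside a median of 7 over all windows. The shares over all windows are not matched for CpG content, so no excess is read from the match counts. A match is a run of letters and no measured binding site.

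Lactate and glucose transporter genes differed from one another in direction. Slc16a1, which encodes the monocarboxylate transporter MCT1 (ENSMUSG00000032902, chromosome 3 from 104638668 to 104658462), was lower in both KO libraries. It had 45.8 and 39.7 CPM in KO, against 268 and 125 in WT, so the groups did not overlap, and the WT libraries differed more from each other than the KO libraries did. The level was 4.59-fold lower in KO (log2 fold change -2.20, SE 0.45), and 2.86-fold lower without WT 1. Marker sums of leukocytes, erythroid cells, proliferation, endothelium and Schwann cells were lower in KO as well. The dental epithelium sum, most of it from Ambn in every library, overlapped between the groups. Of its 10 markers, 9 had negative fold changes, beside 8542 of all 17128 tested genes. The 14 leukocyte markers summed to the values given above, the 10 erythroid markers to 121 and 125 CPM in KO, against 502 and 485 in WT, and the 10 proliferation markers to 761 and 454 CPM in KO, against 2516 and 1518 in WT. The 8 endothelial markers summed to 676 and 629 CPM in KO, against 797 and 1293 in WT, and the 6 Schwann cell markers to 124 and 157 CPM in KO, against 374 and 545 in WT, although 3 of those 6 had positive fold changes. None of the erythroid, proliferation, endothelial and Schwann cell markers was at 0 in any library, and 1 leukocyte marker, Cd3e, was. The part of these cells in the Slc16a1 difference was not tested.

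Slc16a3, which encodes MCT4, a transporter known for exporting lactate from glycolytic cells, stood at a low level. It had 14.8 and 12.4 CPM in KO, against 10.7 and 5.66 in WT, with no overlap between the groups (log2 fold change 0.73, SE 0.53). The gap between the lower KO and the higher WT library was small, and the fold change was 1.29 without WT 1 and 0.30 without WT 2. Per kb, the level of Slc16a1 was 3.73 and 3.85 times that of Slc16a3 in KO, against 30.1 and 26.4 times in WT. Both ratios were close within a group and far apart between groups.

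Slc2a1, the gene of the glucose transporter GLUT1, was moderately lower in KO. It had 18.9 and 23.8 CPM in KO, against 35.6 and 32.5 in WT, and the groups did not overlap. The level was 1.60-fold lower in KO (log2 fold change -0.67, SE 0.38), and the log2 fold change lay between -0.81 and -0.51 with 1 library left out. The leukocyte, erythroid, proliferation, endothelial and Schwann cell sums given for Slc16a1 apply here too, and the part of these cells was not tested.

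Among the enzyme genes, Aldoc had groups that did not overlap. It encodes aldolase C, the brain form of the enzyme that splits fructose bisphosphate (ENSMUSG00000017390, chromosome 11 from 78322968 to 78327781). Aldoc had 353 and 414 counts in KO 1 and KO 2, against 67 and 73 in WT 1 and WT 2, or 18.1 and 23.2 CPM in KO, against 4.66 and 4.65 in WT. The groups were well separated and the WT libraries nearly equal. The level was 4.43-fold higher in KO (log2 fold change 2.15, SE 0.47), and the log2 fold change lay between 2.0 and 2.33 with 1 library left out. No 50-base word of its transcripts occurs in another annotated gene. The marker sums given for Ldhb and Slc16a1 apply here too. The part of cell makeup in the Aldoc and Slc16a3 differences was not tested.

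The other 4 enzyme genes overlapped between the groups. Hk1, the gene of the widely expressed hexokinase that traps glucose as its phosphate, had 104 and 146 CPM in KO, against 109 and 132 in WT. Hk2, the gene of the inducible hexokinase, had 18.4 and 8.63 CPM in KO, against 15.2 and 6.62 in WT. In Hk2 both first libraries were high and both second ones low, and the ratio of Hk1 to Hk2 per kb was 3.96 and 11.8 in KO, against 5.00 and 14.0 in WT. Pfkp, the gene of the platelet form of phosphofructokinase, had 59.8 and 61.4 CPM in KO, against 58.0 and 102 in WT, where WT 2 alone was high. Pitrm1, on the other strand, overlaps Pfkp and had up to 1829 counts, and the libraries do not mark strand, so the Pfkp values are uncertain. Pgk1, the X-linked gene of phosphoglycerate kinase, had 110 and 89.3 CPM in KO, against 113 and 71.3 in WT. It is uncertain as well, since 53.9% of its 50-base words also occur in 5 other annotated genes, which had at most 7 counts each. Log2 fold changes were 0.06 (SE 0.34) for Hk1, 0.31 (SE 0.62) for Hk2, -0.40 (SE 0.39) for Pfkp and 0.11 (SE 0.37) for Pgk1. Each of these 4, and Ldha, changed sign when 1 library was left out.

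**Figure D2:**
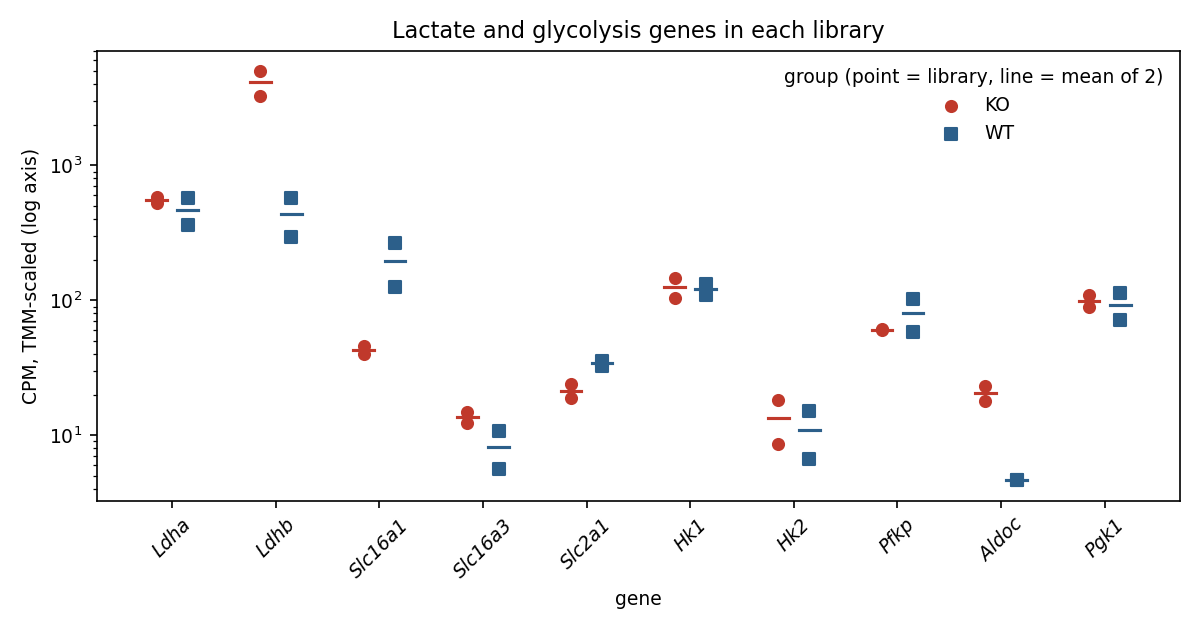
Each point is the level of a gene in 1 library in TMM-scaled CPM on a log axis, KO in red left of WT in blue, and each line is the mean of 2 libraries. Ldhb (4985 and 3264 in KO, against 572 and 296 in WT), Aldoc, Slc16a1, Slc16a3 and Slc2a1 show groups that do not overlap.

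All 10 genes passed the filter on low counts in edgeR. In 3 of them (Ldhb, Slc16a3 and Aldoc) both KO libraries lay above both WT libraries, in 2 (Slc16a1 and Slc2a1) below, and in 5 the groups overlapped. Among all 17128 tested genes, 25.8% lay above and 24.9% below, 50.6% in all, so nothing is read from the 5 of 10. By edgeR's quasi-likelihood test with Benjamini-Hochberg adjustment, 0 of the 10 passed, as did 0% of all tested genes. With p under 0.05 before adjustment, 2 members were on the higher side (Ldhb and Aldoc) and 1 on the lower (Slc16a1), where the share of all genes was 7.32% higher and 9.89% lower (17.2% in all). DESeq2 called the same 3 members, 2 higher and 1 lower, where it called 2.72% of genes higher and 5.69% lower (8.41% in all), and limma-voom called 0. The same 3 were past a log2 fold change of 2 in size, as were 2.9% of all genes on the higher and 7.68% on the lower side. Since the genes were chosen on this contrast, these counts support nothing. The median log2 fold change of the 10 was 0.18, beside 0.00 over all tested genes, with values from -2.20 to 3.25.

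**Figure D3:**
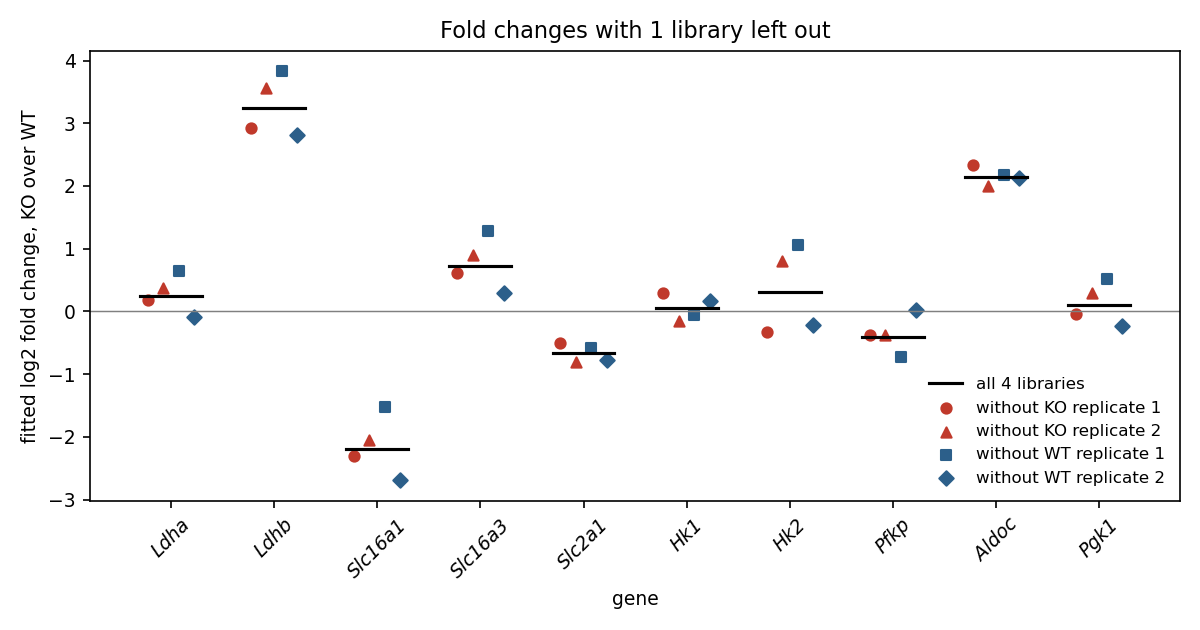
Black lines give the fitted log2 fold change, KO over WT, of each gene with all 4 libraries, and markers give it with 1 library left out (KO red, WT blue). Ldhb stays between 2.81 and 3.83, Aldoc between 2.0 and 2.33 and Slc16a1 between -2.69 and -1.52, whereas Ldha, Hk1, Hk2, Pfkp and Pgk1 cross 0.

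The order of levels per kb was compared within each group. In KO it ran Ldhb (2627), Ldha (168), Pgk1 (44.4), Hk1 (14.7), Slc16a1 (9.67), Aldoc (6.33), Slc2a1 (6.09), Pfkp (4.52), Slc16a3 (2.55) and Hk2 (2.26 CPM per kb, means of 2 libraries). The ranges of Aldoc and Slc2a1 overlapped in KO, and so did those of Slc16a3 and Hk2. In WT it ran Ldhb (276), Ldha (141), Slc16a1 (44.4), Pgk1 (41.2), Hk1 (14.1), Slc2a1 (9.72), Pfkp (5.97), Hk2 (1.83), Slc16a3 (1.54) and Aldoc (1.43 CPM per kb). Slc16a1 and Pgk1 overlapped in WT, as did Hk2 with Slc16a3 and Slc16a3 with Aldoc. Ldhb and Ldha led in both groups, and Aldoc was last in WT and number 6 in KO.

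Around these genes, 125 other genes were listed in 9 groups, of which 109 were tested. None of them passed in edgeR, with 13 higher and 6 lower at an unadjusted p under 0.05, beside 7.32% and 9.89% of all tested genes. DESeq2 called 3 higher and 4 lower, beside 2.72% and 5.69% of all genes, and limma-voom called 0. Their median log2 fold change was 0.33, beside 0.00 over all tested genes, and in 46 both KO libraries lay above both WT libraries, in 19 below. Over all tested genes these shares were 25.8% above and 24.9% below, and 8586 of the 17128 had positive fold changes. The counts without overlap and of positive fold changes in each list below are to be read against these.

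Of 23 other tested glycolytic enzyme genes, 17 had positive and 6 negative fold changes, with a median of 0.34. In 8 the KO libraries lay above and in 4 below WT. Pkm, the gene of the pyruvate kinase of proliferating tissues and muscle, had 984 and 1049 CPM in KO, against 760 and 612 in WT (log2 fold change 0.57, edgeR adjusted p = 0.436). Aldoa, the main aldolase gene, had 626 and 615 CPM in KO, against 474 and 331 in WT (0.62, adjusted p = 0.414), a far smaller difference than that of Aldoc. Eno1 had 993 and 1098 CPM in KO, against 1067 and 780 in WT, Tpi1 288 and 240 in KO, against 239 and 178 in WT, and Gpi1 226 and 187 in KO, against 267 and 184 in WT. Gapdh had 50.1 and 51.3 CPM in KO, against 53.9 and 50.0 in WT. Such a low level for this gene is uncertain: 25.1% of its 50-base words occur in 223 other annotated genes. The share was similar for Pkm (25.8%, in 8 genes) and Eno1 (26%, in 23 genes), and the cause of the low Gapdh level was not tested. By the smallest edgeR p in each direction, Adpgk, an ADP-dependent glucokinase gene, had 116 and 115 CPM in KO, against 76.1 and 61.4 in WT (adjusted p = 0.302). Pklr, the liver and red cell pyruvate kinase gene, had 1.33 and 0.112 CPM in KO, against 4.66 and 6.68 in WT (adjusted p = 0.267), and passed without KO 1 (0.0230).

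Of 9 genes in the other lactate list, 5 had enough counts to be tested. All 5 had positive fold changes, with a median of 0.94, and in 2 of them the groups overlapped. Emb, the gene of embigin, had 136 and 127 CPM in KO, against 38.3 and 30.9 in WT (log2 fold change 1.92, SE 0.34). Its adjusted p was 0.150 in edgeR, which did not pass, and 4.55e-04 in DESeq2, and edgeR passed it without KO 1 (0.0495) and without WT 1 (0.0352). Of its 50-base words, 14.2% occur in 13 other annotated genes. Bsg, the gene of basigin, had 1353 and 1200 CPM in KO, against 796 and 532 in WT (0.94, edgeR adjusted p = 0.247). The partner genes were thus higher in both KO libraries while Slc16a1 was lower. Slc16a7, the gene of MCT2, had 9.33 and 6.11 CPM in KO, against 5.08 and 7.32 in WT. Ldhd, which encodes a mitochondrial dehydrogenase of D-lactate, had 44 and 45 counts in KO, against 25 and 0 in WT.

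Of the 9 other tested glucose transporter genes, 6 lay above and 1 below WT in both KO libraries (median 0.48). Slc2a3, the gene of GLUT3, had 70.2 and 55.4 CPM in KO, against 41.1 and 49.1 in WT (edgeR adjusted p = 0.547). Slc2a13, a proton and myo-inositol symporter gene of the same family, had 11.8 and 14.4 CPM in KO, against 0.0695 and 2.04 in WT (log2 fold change 3.62, SE 1.17). It did not pass in edgeR (adjusted p = 0.206) and passed in DESeq2 (0.00356) and in edgeR without KO 1 (0.0120), and its log2 fold change was 2.71 without WT 1 and 7.39 without WT 2, where WT 1 has 1 count. Slc2a6 rests on WT 1: it had 1.74 and 3.75 CPM in KO, against 50.1 and 3.63 in WT, and the log2 fold change, -3.29 with all libraries, became -0.38 once WT 1 was left out. It passed in DESeq2 (0.00491) and in edgeR without KO 1 (0.0439).

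Genes of pyruvate entry into mitochondria and of the pyruvate dehydrogenase complex, its kinases and phosphatases, and pyruvate carboxylase had positive fold changes in 11 of 14 cases, with a median of 0.40. The pyruvate carrier genes Mpc1 and Mpc2 lay above WT in both KO libraries, with 41.1 and 41.0 CPM in KO, against 27.6 and 22.9 in WT for Mpc1, and 117 and 80.7 in KO, against 74.4 and 50.9 in WT for Mpc2. Pdk1, the gene of a kinase that blocks pyruvate dehydrogenase, had 29.9 and 42.8 CPM in KO, against 26.1 and 42.9 in WT. Pdk4, of the same family, had 51.1 and 56.0 CPM in KO, against 27.0 and 36.0 in WT, and Pcx, the pyruvate carboxylase gene, 6.10 and 7.51 in KO, against 8.20 and 18.3 in WT. The smallest edgeR adjusted p of these 5 was 0.338, for Pdk4.

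Shuttles that pass cytosolic NADH to mitochondria had a median of 0.11 over 10 genes. Gpd1l, a glycerol phosphate dehydrogenase gene, had 59.8 and 34.6 CPM in KO, against 268 and 118 in WT (log2 fold change -2.03, SE 0.51). It did not pass in edgeR (adjusted p = 0.165) and passed in DESeq2 (0.00235) and in edgeR without KO 1 (0.0269), and its log2 fold change was -1.29 without WT 1. Gpd2, the gene of the mitochondrial partner enzyme, had 58.5 and 53.2 CPM in KO, against 27.4 and 33.9 in WT (0.87, adjusted p = 0.276). In the pentose phosphate pathway (7 tested genes, median -0.21), G6pdx, the gene of its entry enzyme, had 67.3 and 90.6 CPM in KO, against 45.3 and 34 in WT, and Pgls, of the next step, 165 and 90.3 in KO, against 367 and 192 in WT. Of 12 tested genes of gluconeogenesis and glycogen (median 0.66), 9 lay above and 2 below WT in both KO libraries. G6pc3, a widely expressed glucose phosphatase gene, had 76.5 and 68.8 CPM in KO, against 29.3 and 29.7 in WT (log2 fold change 1.30, edgeR adjusted p = 0.171, DESeq2 adjusted p = 0.0418). Pygm, the muscle glycogen phosphorylase gene, had 4.25 and 7.12 CPM in KO, against 9.04 and 15.5 in WT.

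**Figure D4:**
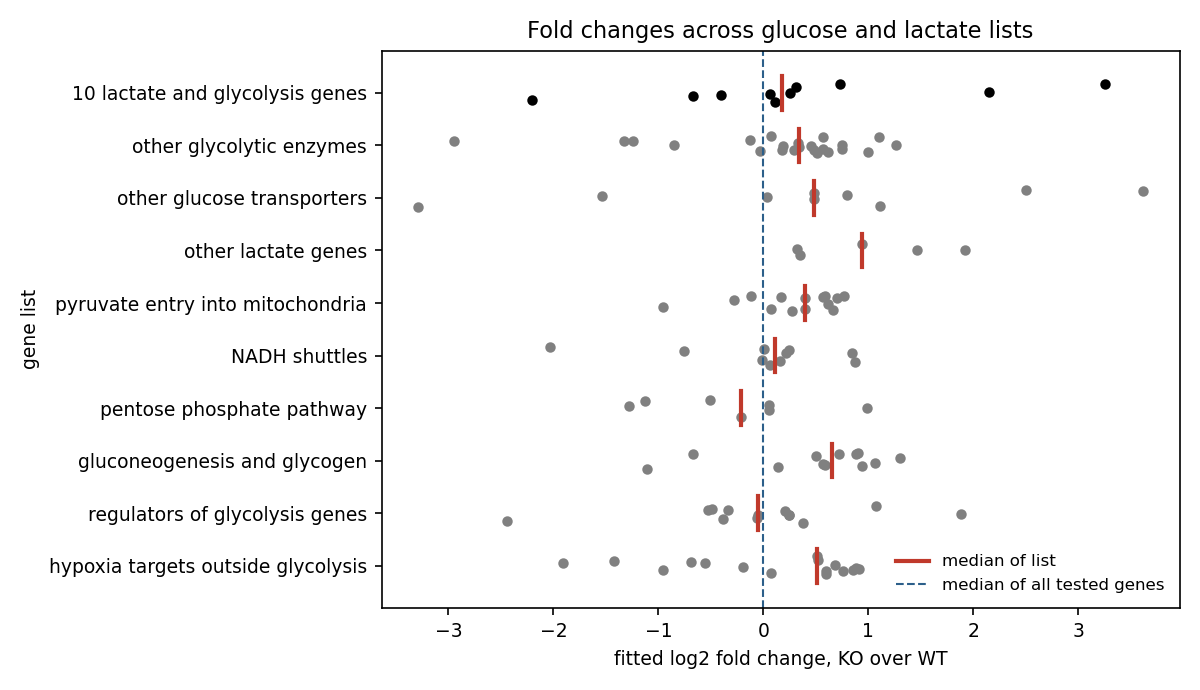
Each point is the fitted log2 fold change, KO over WT, of 1 tested gene, by list from top to bottom, with red bars at list medians and a dashed line at the median of all tested genes (0.00). List medians run from -0.21 for the pentose phosphate pathway to 0.94 for the other lactate genes.

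Known regulators of these genes showed no common direction, with a median of -0.05 over 13 tested genes. Hif1a, which encodes the oxygen-regulated subunit of HIF, had 156 and 170 CPM in KO, against 217 and 251 in WT (log2 fold change -0.53, edgeR adjusted p = 0.460), and Epas1, its relative, 71.8 and 126 in KO, against 74.8 and 183 in WT. HIF is regulated largely through its protein, which was not measured. Egln3, a hydroxylase gene that HIF itself induces, had 3.28 and 1.57 CPM in KO, against 20.7 and 5.73 in WT (-2.44, adjusted p = 0.210, DESeq2 0.0243), and its log2 fold change was -1.21 without WT 1. Myc had 199 and 180 CPM in KO, against 181 and 146 in WT, and Txnip, whose product restrains glucose uptake, 184 and 189 in KO, against 191 and 279 in WT. Ppargc1a, the gene of a coactivator of mitochondrial genes, had 11.4 and 7.17 CPM in KO, against 2.09 and 2.93 in WT (1.88, adjusted p = 0.218). Among 16 hypoxia targets outside glycolysis (median 0.52), 8 lay above and 3 below WT in both KO libraries. Vegfa had 4.97 and 3.19 CPM in KO, against 7.09 and 4.96 in WT. P4ha2, a collagen prolyl hydroxylase gene, had 233 and 280 CPM in KO, against 128 and 156 in WT (0.85, adjusted p = 0.255). Ddit4, a stress-induced inhibitor of mTOR signalling, had 55.1 and 85.3 CPM in KO, against 182 and 195 in WT (-1.42, adjusted p = 0.165, DESeq2 0.0201).

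Genes next to Ldhb were examined for how far the difference extends along the chromosome. Of 11 protein-coding genes within 250 kb of Ldhb, itself included, 8 were tested. Apart from Ldhb and Spx, their log2 fold changes lay between -0.43 for Recql and 0.69 for Pyroxd1. Kcnj8, a potassium channel gene whose start lies upstream at -63.7 kb, had 13.2 and 19.1 CPM in KO, against 19.1 and 21.6 in WT. Golt1b, 121 kb downstream, had 87.4 and 76.7 CPM in KO, against 65.6 and 48.9 in WT. Spx, a neuropeptide gene, had 4 and 0 counts in KO, against 10 and 19 in WT. Gys2, the nearest gene downstream, had at most 6 counts in any library and was not tested.

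**Figure D5:**
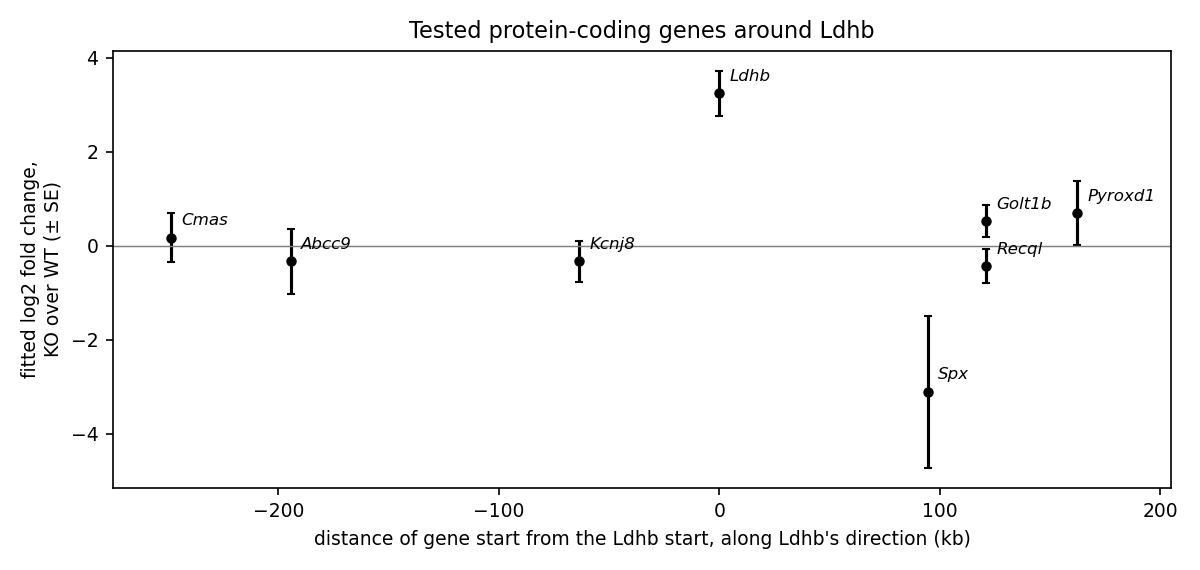
Points give the fitted log2 fold change, KO over WT, with SE bars, of the 8 tested protein-coding genes by distance in kb of their start from the Ldhb start, upstream to the left. Ldhb stands at 3.25, and the other genes lie between -0.43 and 0.69 except Spx, which had at most 19 counts.

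The genes whose pattern was most like that of Ldhb were found by Euclidean distance in log2(CPM + 1), centred per gene, over 4 libraries, among 10167 genes of at least 10 mean CPM. Myo5b, a myosin motor gene, was nearest (distance 0.356), with 149 and 71.5 CPM in KO, against 15.6 and 6.30 in WT. Rnf144b, an E3 ubiquitin ligase gene, followed (0.686), with 78.5 and 57.3 CPM in KO, against 11.8 and 7.83 in WT. Col9a3, a cartilage collagen gene, was next (0.712), with 253 and 304 CPM in KO, against 52.1 and 22.6 in WT. In Myo5b and Rnf144b, as in Ldhb, KO 1 was above KO 2 and WT 1 above WT 2, and in Col9a3 KO 2 was the higher KO library.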

How the data were processed

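The deposited table holds raw counts of reads, as whole numbers, by Ensembl gene and library. Per the labels' protocols, cDNA was primed at poly(A) tails, extended by template switching, amplified in 14 PCR cycles, and 50 ng of cDNA were fragmented with a transposase kit. Per the submitters' processing notes, the tools were featureCounts 2.0.1, Bowtie2 2.3.5.1 and Trim Galore 0.6.6, with GRCm38. Annotation release, strand setting and treatment of reads with several matches: not given in the sources used here. Such reads, if dropped, lower genes with near-identical copies. Shares of 50-base words found in other genes are given above for some genes only. They were also 26.3% for Mpc1, 18.9% for Pgls, 40.2% for Ldhd and 20.5% for Pklr, for example.

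Symbols, coordinates and exon lengths came from GENCODE M21 (55227 of 55487 IDs matched), promoter windows from RefSeq. Car9 and Car12 were matched through older symbols. edgeR 4.0.16 (R 4.3.3) was fitted to all 17128 genes kept by filterByExpr, with TMM scaling, genotype as the only term, a two-sided quasi-likelihood F-test, Benjamini-Hochberg adjustment and a threshold of 0.05. The biological coefficient of variation was 49.2%. Fold changes are fitted, KO over WT, and the SE is the absolute log2 fold change divided by the square root of F. Alternatives were limma 3.58.1 (voom) and DESeq2 1.42.0. The tests were run on simulated data with a smaller spread between libraries than these data have, so that check does not show how they perform here. A count of 3 equals 0.154 to 0.209 CPM. Replicates were not copies of each other (chi-square over genes, per gene: 88.8 in KO and 148 in WT).

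The members, lists and tests were chosen with earlier results of these data known. Named in the text are the 10 members, 19 genes named whatever their values and, per list, the gene with the smallest p in each direction. The 19 were also chosen with earlier results of these data known. Genes near Ldhb were chosen by position, and the genes most like Ldhb by distance in these same libraries. Single marker and sex-linked genes were named by no such rule.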

Additional observations from a re-analysis of the deposited data

How the results depend on the processing

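Ldhb, Slc16a1, Slc16a3, Slc2a1 and Aldoc kept their direction under all 11 alternatives in scaling, filter, test, replicate block and libraries. With 1 library left out, log2 fold changes ran from -0.09 to 0.65 for Ldha, -0.16 to 0.29 for Hk1, -0.33 to 1.06 for Hk2, -0.72 to 0.03 for Pfkp, -0.23 to 0.51 for Pgk1, -0.12 to 0.05 for Gapdh, -0.06 to 0.45 for Eno1, -0.41 to 0.19 for Gpi1, -0.01 to 0.63 for Slc16a7, -0.22 to 0.45 for Pdk1 and -0.87 to 0.38 for Epas1. The stricter filter gave -0.04 for Hk1 and -0.02 for Pdk1, and library totals alone gave 0.00 for Gapdh. Over all genes, edgeR's 0 higher and 0 lower became 449 and 1005 with no filter, 472 and 989 under DESeq2, and 0 to 215 and 0 to 703 with 1 library left out: 215 and 703 without KO 1, 15 and 1 without KO 2, 95 and 214 without WT 1, and 0 and 0 without WT 2. In the other lists, 0 and 0 became 2 and 4 without the filter, 3 and 4 in DESeq2, and 0 to 2 and 0 to 3 with 1 library left out. The 2 groups share replicate numbers that the labels do not tie to a pairing (correlation of deviations 0.219). With the replicate block, edgeR called 59 higher and 185 lower genes, and 1 and 1 in the other lists (Emb and Gpd1l). Of the 10 members, edgeR without the filter called 2 higher and 1 lower (Ldhb, Aldoc and Slc16a1), beside 449 and 1005 of all 31364 genes. With the replicate block it called Ldhb alone, as higher, beside 59 and 185 of all 17128 genes. Since the members were chosen on this contrast, nothing is read from these calls. The difference in Ldhb share of 28.2 points was 40.3 with raw counts and 35.6 with principal transcript lengths, a setting chosen after seeing the data, and 26.1 to 30.3 with 1 library left out. The cause of these changes was not tested. With 1 library left out, the lone library is taken to have the spread of the opposite group. Depth limits Ldhd, Spx, Pklr and Vegfa, which had 105 counts or fewer in each library.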
